A study of Homo sapiens with 9 samples.

Results

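The hypoxia-inducible factors (HIFs) and 7 other genes of their pathway outside glycolysis were examined as a group of 10 among the 58735 genes of the deposited count table. They comprise the subunits HIF1A, EPAS1 and ARNT, the regulator VHL, the feedback genes CITED2, BHLHE40 and BHLHE41, and the targets NDRG1, CA9 and CA12. They were chosen by name from the pathway, with the levels of these same libraries already known, so their values are given as a description and the number that changed supports nothing. The libraries came from HEYA8, an established human line of ovarian cancer, labelled as high-grade serous cancer of wild-type genotype. Cells received the solvent DMSO as control, sunitinib, a drug that blocks multiple receptor tyrosine kinases, or compound 32, each for 24 h. There were 3 libraries per treatment, and all 9 carry the label Day 1 as their batch. The sources used here give neither the doses nor the structure of compound 32 or how it relates to sunitinib, so the compounds cannot be set side by side at a matched dose. No condition of low oxygen is labelled.

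HIF is a pair of proteins, an oxygen-labile alpha subunit (HIF-1 alpha from HIF1A, HIF-2 alpha from EPAS1) and the stable partner ARNT. In the presence of oxygen, prolyl hydroxylases mark the alpha subunit, VHL recognises the mark as part of a ubiquitin ligase, and the protein is degraded. When the alpha subunit persists, the pair binds short response elements with the core ACGTG or GCGTG and switches on genes of glycolysis, blood vessel growth, pH control and survival. Because this control acts on protein, transcript levels of the subunits do not report HIF activity, and no protein was measured here.

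Levels are in CPM, each count divided by its scaled library size, and each ± is a standard deviation over 3 libraries. A change is a log2 fold change with its standard error (SE) from edgeR's quasi-likelihood fit over all genes, and a call needs a p under 0.05 after Benjamini-Hochberg adjustment over all genes tested. Library totals ran from 15498101 to 18006171 counts. Sunitinib replicate 3 stood apart from its group: ribosomal protein genes took 6.96% of its counts (3.71 to 4.52% in the other 8 libraries) and mitochondrial genes 5.36% (3.42 to 3.92%). Of the 10 markers for ovarian carcinoma, PAX8 (114 to 136 CPM), MECOM (38.2 to 60 CPM) and the keratins KRT8 and KRT18 (at least 321 CPM) were present, and SOX17 was low (2.21 to 5.25 CPM). KRT7 was higher with sunitinib (224 CPM, 72.1 with DMSO, log2 fold change 1.63 ± 0.07 SE) and WT1 lower (5.12 and 12.4 CPM, -1.27 ± 0.13). MUC16 and CDH1 stayed at or under 0.325 CPM and EPCAM at or under 2.53 CPM, while the mesenchymal gene VIM lay between 3280 and 4520 CPM. Markers of immune, erythroid and adipocyte cells summed to at most 1.17, 0.106 and 0.455 CPM. These are bulk libraries, in which fewer cells of a type and less RNA per cell cannot be told apart.

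Compound 32 gave the highest NDRG1, BHLHE40, CA9 and CA12, while sunitinib gave the highest EPAS1, VHL and CITED2. With compound 32, 6 of the 9 genes that passed the filter on low counts were called against DMSO (22.3% of all 15232 genes tested). Of these, 5 were higher (12% of all genes) and 1 lower (10.3%). The 3401 genes behind that share became 2136 to 2241 when any 1 DMSO or compound 32 library was left out and 6548 without sunitinib replicate 3. With sunitinib, 7 of 9 were called (40.2% of all genes), 5 higher (20.3%) and 2 lower (19.9%). Between the compounds, 6 of 9 were called (49.2% of all genes), 3 higher with compound 32 (24.1%) and 3 lower (25.2%). The median log2 fold change of the 9 was 0.52 for compound 32, 0.39 for sunitinib and 0.02 between the compounds. Over all genes tested it was -3e-04, 0.02 and -0.03. Each median of the 9 is the value of 1 gene. In that order the genes are BHLHE41 (not called), VHL, and HIF1A (not called), so these medians do not measure a shift of the group. Both compounds were compared with the same 3 DMSO libraries. Of all genes tested, 49.1% had no overlap between compound 32 and DMSO libraries, 50.9% between sunitinib and DMSO, and 56.9% between the compounds. A lack of overlap is thus common among all genes. CA9 did not pass the filter and is given by its counts.

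**Figure D1:**
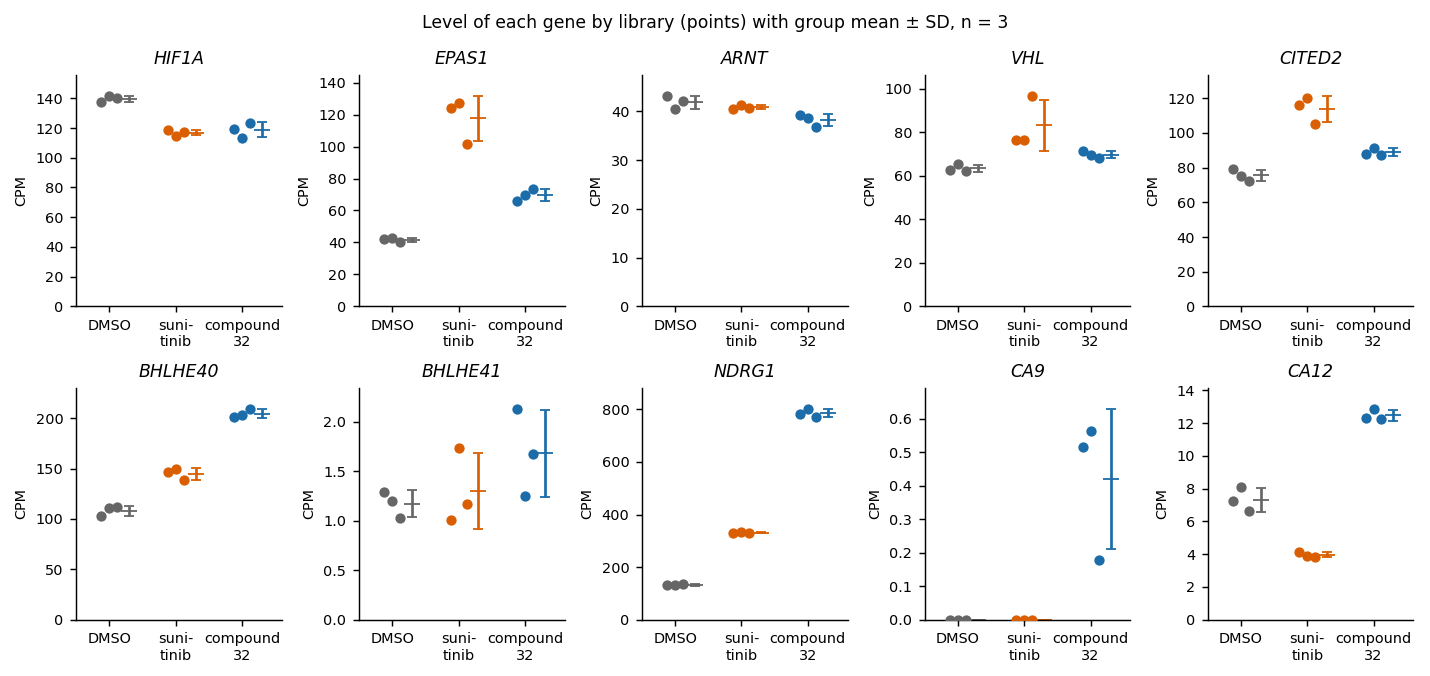
Level of each of the 10 genes (CPM, linear axis from 0) in every library, as points, with the group mean ± SD (n = 3) beside them. NDRG1 steps up from 133 CPM with DMSO to 331 with sunitinib and 785 with compound 32, whereas EPAS1 is highest with sunitinib (118 CPM) and CA12 lowest there (3.95 CPM).

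Among the subunits, the alpha transcripts moved in opposite directions. HIF1A (ENSG00000100644, chr14:61695513-61748259, GRCh38) encodes the broadly expressed alpha subunit. It measured 138, 142 and 140.3 CPM in the DMSO libraries, 118, 115 and 117 CPM with sunitinib, and 119, 114 and 124 CPM with compound 32. All 6 treated libraries lay below the lowest DMSO library, and the treated groups overlapped each other. HIF1A was called lower with sunitinib (log2 fold change -0.26 ± 0.06 SE) and with compound 32 (-0.23 ± 0.06). The second call was lost in 3 of 18 alternative analyses, without DMSO replicate 2 (edgeR quasi-likelihood, adjusted p = 0.0557), without DMSO replicate 3 (0.0549) or without compound 32 replicate 2 (0.0733). Between the compounds HIF1A was not called (0.02 ± 0.06, 95% interval -0.10 to 0.15).

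EPAS1 (ENSG00000116016, chr2:46293667-46386703), the alpha subunit best known from endothelium and kidney, went the other way. Its level was 42.3, 42.6 and 40.0 CPM with DMSO, 124, 128 and 102 CPM with sunitinib, and 65.8, 69.8 and 73.6 CPM with compound 32. The 3 groups did not overlap, in the order DMSO, compound 32, sunitinib. EPAS1 was 2.83-fold higher with sunitinib than with DMSO (log2 fold change 1.50 ± 0.09) and 1.68-fold higher with compound 32 (0.74 ± 0.09). It was lower with compound 32 than with sunitinib (-0.76 ± 0.09). Sunitinib replicate 3 was the lowest of its group, and without it the sunitinib change was 1.59. Ranked by log2 fold change from the highest, EPAS1 stood at 364 of 15232 genes with sunitinib. The 6 endothelial markers summed to 8.74 to 11.4 CPM with DMSO, 15 to 18.3 with sunitinib and 6.92 to 7.94 with compound 32. CDH5 carried most of that sum, reaching 15.3 CPM, the others stayed at or under 1.73 CPM, and TEK and CLDN5 were at 0 in some libraries. Of 5 tested with sunitinib, CDH5 was higher (0.91 ± 0.14), CLDN5 lower (-2.07 ± 0.71, from 0.442 to 0.104 CPM) and 3 were not called. Their part in the EPAS1 result was not tested.

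Set against each other per kilobase of gene length, the ratio of EPAS1 to HIF1A level was 0.217, 0.212 and 0.201 in the DMSO libraries (0.210 ± 0.008). It was 0.740, 0.783 and 0.610 with sunitinib (0.711 ± 0.090) and 0.388, 0.434 and 0.420 with compound 32 (0.414 ± 0.023). HIF1A therefore remained the more abundant alpha transcript in all 9 libraries, and the treatments did not overlap in the ratio.

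**Figure D2:**
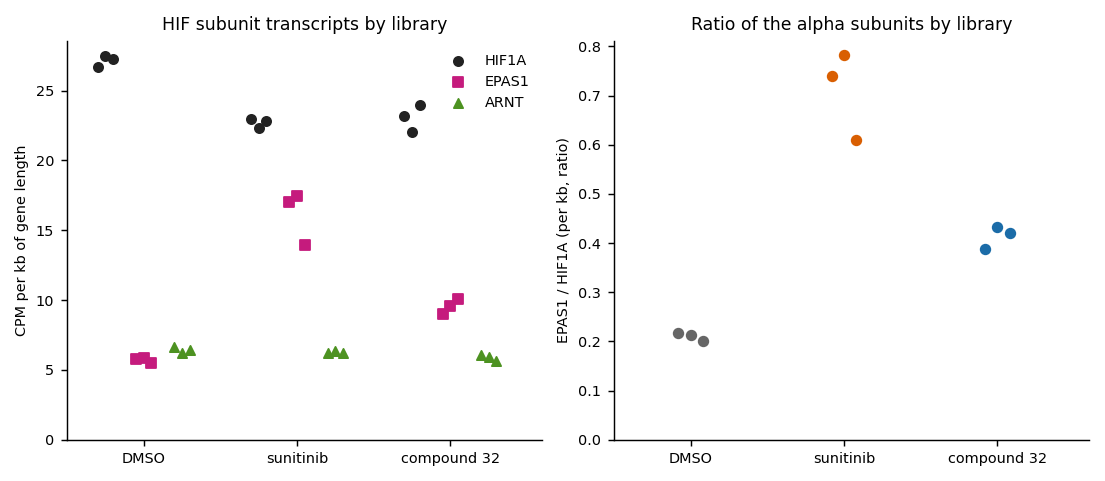
Left, CPM per kilobase of gene length for the HIF subunit transcripts in each of the 9 libraries. Right, the ratio of EPAS1 to HIF1A per kilobase in each library, which averages 0.210 with DMSO, 0.711 with sunitinib and 0.414 with compound 32. Both axes start at 0.

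ARNT, the shared partner, and VHL, the ligase subunit, had narrower ranges than EPAS1. ARNT (ENSG00000143437, chr1:150809705-150876768) gave 43.1, 40.5 and 42.1 CPM with DMSO, 40.5, 41.3 and 40.6 with sunitinib, and 39.3, 38.6 and 36.8 with compound 32. The compound 32 libraries were the lowest 3 of the 9, but ARNT was not called in any comparison. Its intervals of 95% were -0.28 to 0.01 for compound 32 against DMSO, -0.18 to 0.11 for sunitinib against DMSO and -0.24 to 0.05 between the compounds. Upper-quartile scaling alone called the last of these (-0.18, adjusted p = 0.041).

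VHL (ENSG00000134086, chr3:10141008-10152220) measured 62.4, 65.4 and 62.3 CPM with DMSO, 76.2, 76.5 and 96.7 with sunitinib, and 71.3, 69.6 and 68.2 with compound 32. Every treated library was above the DMSO range, and sunitinib replicate 3 was the highest. VHL was called higher with sunitinib (0.39 ± 0.09), and the value without that replicate was 0.27. Compound 32 gave 0.14 ± 0.09 against DMSO, not called in the fit over all libraries (edgeR, adjusted p = 0.32). The same value of 0.14 was called when sunitinib replicate 3 was left out (0.0257) or when the fit held the 6 libraries compared (0.0332). VHL was called lower with compound 32 than with sunitinib (-0.25 ± 0.09, adjusted p = 0.0352). That call was lost in 8 of 18 alternatives, among them the replicate block (0.0552) and the omission of any DMSO (0.0541 to 0.058) or any compound 32 library (0.0734 to 0.111). Without sunitinib replicate 3 the value fell to -0.13 (0.0456).

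The wider machinery was read from 25 symbols for HIF partners and regulators outside the 10 genes, 24 of them in the table and 20 tested. With compound 32, 4 were higher, 0 lower and 16 not called (median log2 fold change -0.00). With sunitinib, 5 were higher, 4 lower and 11 not called (median 0.03). Beside this and the later lists stand the shares of all genes called, 22.3% with compound 32, 40.2% with sunitinib and 49.2% between the compounds. EGLN1, the main prolyl hydroxylase and itself a HIF target, rose with compound 32 from 61.5 ± 0.449 to 117 ± 1.53 CPM (0.93 ± 0.06). EGLN1 fell with sunitinib to 50.8 ± 2.84 CPM (-0.28 ± 0.06). EGLN2 was not called against DMSO with compound 32 (0.22 ± 0.16) or sunitinib (-0.36 ± 0.16). The hypoxia-induced hydroxylase EGLN3 was too low to test, at 0.295 CPM with DMSO, 0.378 with sunitinib and 0.519 with compound 32. HIF1AN, the asparagine hydroxylase that blocks the HIF activation domain, was not called in any comparison (0.11 ± 0.07, 0.07 ± 0.07 and 0.04 ± 0.07). SIAH2, a ubiquitin ligase for prolyl hydroxylases, rose with compound 32 (0.41 ± 0.06), and HIF1A-AS2, an antisense transcript of the HIF1A locus, went from 0.567 ± 0.0242 to 1.80 ± 0.130 CPM (1.66 ± 0.33). With sunitinib P4HTM, a membrane prolyl hydroxylase, rose (1.08 ± 0.12), JUND rose (0.90 ± 0.09) and the chaperone HSP90AB1 fell (-0.59 ± 0.07). Between the compounds 5 were higher and 4 lower with compound 32, including EGLN1 (1.20 ± 0.06), EGLN2 (0.59 ± 0.16), P4HTM (-0.90 ± 0.12) and OS9 (-0.42 ± 0.06).

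Promoter windows ran from 250 bases before to 50 after a transcript start (RefSeq, GRCh38.p14). Windows of 8 of the 10 genes were used, with VHL and NDRG1 left out of the motif search. They were searched on both strands for the HIF cores ACGTG and GCGTG and for the E-box CACGTG, which BHLHE40 and BHLHE41 bind and which holds ACGTG on either strand. Of 35116 windows of this length, 21.4% held ACGTG, 36.5% GCGTG, 48.4% one or the other and 7.26% the E-box. The windows of EPAS1, BHLHE40, CA9 and CA12 are printed as examples, an alpha subunit, a repressor and both carbonic anhydrases, 5′ to 3′ along the gene's strand. Capitals mark the cores, as CACGT or CACGC where the core lies on the opposite strand, and the 6 capitals of the BHLHE40 E-box.
EPAS1 (chr2:46297157-46297456, plus strand): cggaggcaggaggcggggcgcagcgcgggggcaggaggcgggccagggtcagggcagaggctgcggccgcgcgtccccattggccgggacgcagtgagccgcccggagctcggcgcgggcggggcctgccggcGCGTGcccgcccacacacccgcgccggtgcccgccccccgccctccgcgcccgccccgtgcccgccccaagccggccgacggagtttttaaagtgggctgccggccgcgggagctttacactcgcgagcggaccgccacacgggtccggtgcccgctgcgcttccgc
BHLHE40 (chr3:4979187-4979486, plus strand): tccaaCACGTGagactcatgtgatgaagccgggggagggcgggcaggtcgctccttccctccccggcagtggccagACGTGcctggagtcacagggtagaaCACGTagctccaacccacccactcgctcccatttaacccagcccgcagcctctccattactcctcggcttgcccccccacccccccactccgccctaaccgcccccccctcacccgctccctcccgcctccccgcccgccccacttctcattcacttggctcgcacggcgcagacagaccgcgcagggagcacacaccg
CA9 (chr9:35673678-35673977, plus strand): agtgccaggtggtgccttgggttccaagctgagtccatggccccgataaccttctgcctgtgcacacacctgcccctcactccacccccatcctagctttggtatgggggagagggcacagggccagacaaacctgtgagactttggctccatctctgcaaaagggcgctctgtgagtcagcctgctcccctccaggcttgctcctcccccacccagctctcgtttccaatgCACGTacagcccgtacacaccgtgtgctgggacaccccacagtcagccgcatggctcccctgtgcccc
CA12 (chr15:63381797-63382096, minus strand): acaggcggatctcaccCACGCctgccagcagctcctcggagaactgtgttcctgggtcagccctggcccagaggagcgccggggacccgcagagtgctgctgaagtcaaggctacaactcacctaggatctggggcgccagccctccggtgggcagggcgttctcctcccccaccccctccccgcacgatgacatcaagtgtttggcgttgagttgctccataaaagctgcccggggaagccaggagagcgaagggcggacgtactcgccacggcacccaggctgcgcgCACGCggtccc
Counted from the start site, EPAS1 had 1 GCGTG at position -117 and CA9 had 1 ACGTG at position -18. CA12 had 2 GCGTG matches, at positions -234 and 40. BHLHE40 had an E-box at position -245 and single ACGTG cores at positions -174 and -149. E-boxes also lay in windows of CITED2 (position -153) and BHLHE41 (position -48). A window of HIF1A held GCGTG at position -204, whereas the ARNT window held none of these motifs. A match is letters only, and no binding was measured.

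The feedback genes act on HIF or on its output. CITED2 (ENSG00000164442, chr6:139371807-139374620) encodes a protein that competes with HIF alpha for the coactivators p300 and CBP. It measured 79.0, 75.3 and 72.5 CPM with DMSO, 116, 120.3 and 105 with sunitinib, and 87.6, 91.5 and 87.4 with compound 32. The 3 groups did not overlap, and sunitinib was highest. CITED2 was called higher with sunitinib (0.59 ± 0.07, 1.51-fold) and lower with compound 32 than with sunitinib (-0.36 ± 0.07). The rise with compound 32 over DMSO was small (0.23 ± 0.07, edgeR adjusted p = 0.0327). That call was lost in 8 of 18 alternatives: with library totals as the only scaling (0.0627), with no filter (0.072), and without any 1 DMSO library (0.06 to 0.143) or any 1 compound 32 library (0.0778 to 0.13). The value stayed between 0.20 and 0.26.

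BHLHE40 (ENSG00000134107, chr3:4979116-4985323), also known as DEC1, is a repressor that binds E-boxes and damps clock genes. Its level was 103, 111 and 112 CPM with DMSO, 147, 149.7 and 139 with sunitinib, and 201, 204 and 209 with compound 32. Again the treatments did not overlap, here with compound 32 highest. BHLHE40 was 1.89-fold higher than DMSO with compound 32 (0.92 ± 0.06) and 1.34-fold higher with sunitinib (0.42 ± 0.06), and it was higher with compound 32 than with sunitinib (0.50 ± 0.06). The antisense gene BHLHE40-AS1, which shares 4 exon bases, had 38 counts over all libraries against 22374 for BHLHE40.

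BHLHE41 (ENSG00000123095, chr12:26120026-26125127), its close relative DEC2, was near the limit of detection, with 16 to 33 counts per library. It gave 1.29, 1.20 and 1.03 CPM with DMSO, 1.00, 1.73 and 1.17 with sunitinib, and 2.13, 1.25 and 1.67 with compound 32. The sunitinib libraries overlapped both other groups. No comparison was called, and the 95% intervals were wide: -0.14 to 1.17 for compound 32, -0.54 to 0.82 for sunitinib and -0.27 to 1.02 between the compounds. The interval for compound 32 includes both 0 and 0.92, the value of BHLHE40. The gene shares 162 exon bases with SSPN on the opposite strand (80 counts over the 9 libraries, 202 for BHLHE41). Whether reads were counted by strand is not given, so reads from the shared bases cannot be told apart.

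In the list of 21 clock genes, the usual targets and partners of BHLHE40 and BHLHE41, 18 were tested. With compound 32, 6 were higher, 1 lower and 11 not called (median 0.16). RORA, an activator of ARNTL, rose (1.83 ± 0.18), as did ARNTL itself, the core clock gene also called BMAL1 (0.57 ± 0.10), and the nuclear receptor NR1D2 fell (-0.67 ± 0.10). With sunitinib, 6 were higher, 4 lower and 8 not called (median -0.02), among them ARNTL2 (-0.62 ± 0.07), NPAS2 (0.59 ± 0.07) and the kinase CSNK1E (0.40 ± 0.06). Between the compounds 4 were higher and 5 lower with compound 32, with ARNTL2 at 0.83 ± 0.07, RORA at 1.97 ± 0.18 and NR1D2 at -0.72 ± 0.10. RORA also stands in the list of HIF targets.

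The carbonic anhydrases CA9 and CA12 hydrate carbon dioxide at the outer cell surface and are classic hypoxia genes. CA9 (ENSG00000107159, chr9:35673856-35681159) had 0 counts in each DMSO and each sunitinib library, and 8, 9 and 3 counts in the compound 32 libraries (0.516, 0.562 and 0.179 CPM). It was thus counted with 1 treatment only, at the lowest level of the 10 genes. Taking 3 counts over a whole group as the limit that 0 counts allow, CA9 was at least 6.59-fold higher with compound 32 than with DMSO and at least 6.97-fold higher than with sunitinib. These bounds take the 20 counts with compound 32 as measured and allow for counting error in the groups at 0 only. When the low-count filter was dropped, edgeR's adjusted p was 0.00285 against DMSO and 0.00081 against sunitinib. CA9 entered that fit only through its 20 counts with compound 32, so these p-values are no separate support. CA9 shares 643 exon bases with ARHGEF39 on the opposite strand, whose reads cannot be told apart there. ARHGEF39 was lowest where CA9 was counted, at 9.69 ± 0.472 CPM with DMSO, 7.33 ± 0.855 with sunitinib and 5.70 ± 0.428 with compound 32.

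CA12 (ENSG00000074410, chr15:63321378-63382161) was the gene of the 10 that the compounds moved in opposite directions with a call on both sides. It measured 7.25, 8.08 and 6.62 CPM with DMSO, 4.12, 3.90 and 3.83 with sunitinib, and 12.3, 12.9 and 12.2 with compound 32. Sunitinib lay wholly below DMSO and compound 32 wholly above it. The log2 fold change was -0.89 ± 0.12 for sunitinib and 0.77 ± 0.11 for compound 32, and CA12 was 3.15-fold higher with compound 32 than with sunitinib (1.66 ± 0.12). These 3 calls were kept in all 18 alternatives.

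Of 18 paralogs of CA9, CA12, NDRG1 and CITED2, 9 were tested. Cytosolic CA2 showed the same pattern as CA12, with 8.99 ± 0.555 CPM for DMSO, 3.52 ± 0.403 for sunitinib and 19.5 ± 0.660 for compound 32 (log2 fold changes -1.35 ± 0.12 and 1.12 ± 0.11). It was the 1 paralog called with compound 32 against DMSO, and the other 8 were not called. With sunitinib CA11 was higher (1.86 ± 0.45, from 0.230 ± 0.0962 to 0.869 ± 0.273 CPM), CA2 lower and 7 not called. Between the compounds CA2 was higher with compound 32 (2.46 ± 0.12) and 4 paralogs were lower, CA11 and CA14, named after their values were seen, CA5B (-1.65 ± 0.32) and CITED4 (-0.70 ± 0.14). The NDRG1 paralogs NDRG3 (-0.15 ± 0.07) and NDRG4 (0.33 ± 0.18) were not called with compound 32. These NDRG paralogs were also named after their values were seen.

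Carriers that move acid, lactate or bicarbonate work beside the carbonic anhydrases, and 13 of 17 were tested. With compound 32, 3 were higher, 1 lower and 9 not called (median 0.20). Among those that rose were the lactate exporter SLC16A3 (0.84 ± 0.13) and the scaffold protein SLC9A3R1 (0.52 ± 0.07). SLC16A3 is also in the glycolytic list. With sunitinib, 1 was higher, 4 lower and 8 not called (median -0.11), including the bicarbonate carrier SLC4A7 (-0.79 ± 0.10) and the monocarboxylate carriers SLC16A1 (-0.43 ± 0.06) and SLC16A7 (-0.73 ± 0.10). Between the compounds 8 were higher with compound 32, 2 lower and 3 not called (median 0.54), with SLC4A7 at 1.00 ± 0.10, SLC16A1 at 0.59 ± 0.06 and SLC9A3R1 at 0.61 ± 0.07.

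**Figure D3:**
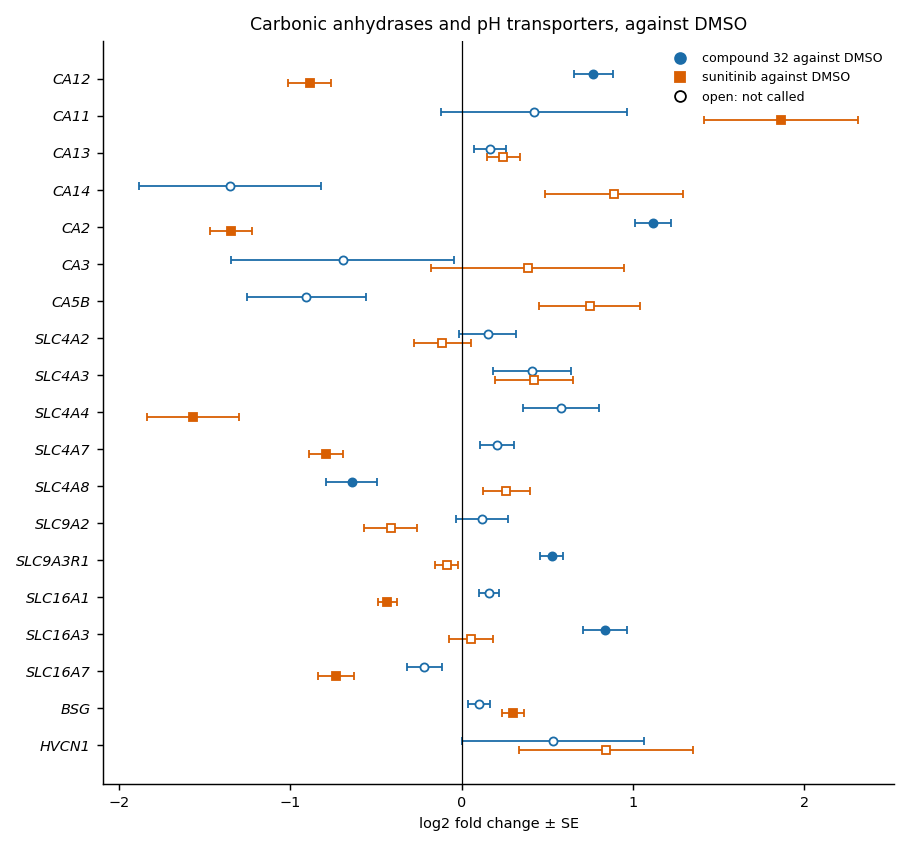
Log2 fold change ± SE against DMSO of carbonic anhydrases and pH transporters that were tested, 1 of them not shown, for compound 32 and sunitinib, in the fit over 9 libraries; open symbols were not called. CA12 lies at 0.77 with compound 32 and -0.89 with sunitinib, and CA2 at 1.12 and -1.35.

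NDRG1 (ENSG00000104419, chr8:133237171-133302022), a cytoplasmic stress-response protein induced by hypoxia and by iron chelation, had the widest range of the 9 genes that passed the count filter. Its level was 132, 131 and 136 CPM with DMSO, 329, 335 and 330.1 with sunitinib, and 782, 802 and 771 with compound 32. Libraries of a treatment lay close together and the treatments far apart. NDRG1 was 5.91-fold higher than DMSO with compound 32 (2.56 ± 0.06) and 2.50-fold higher with sunitinib (1.32 ± 0.06), and 2.37-fold higher with compound 32 than with sunitinib (1.24 ± 0.06). Ranked by log2 fold change from the highest, it stood at 19 of 15232 genes for compound 32 and at 509 for sunitinib. All these calls were kept in the 18 alternatives.

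**Figure D4:**
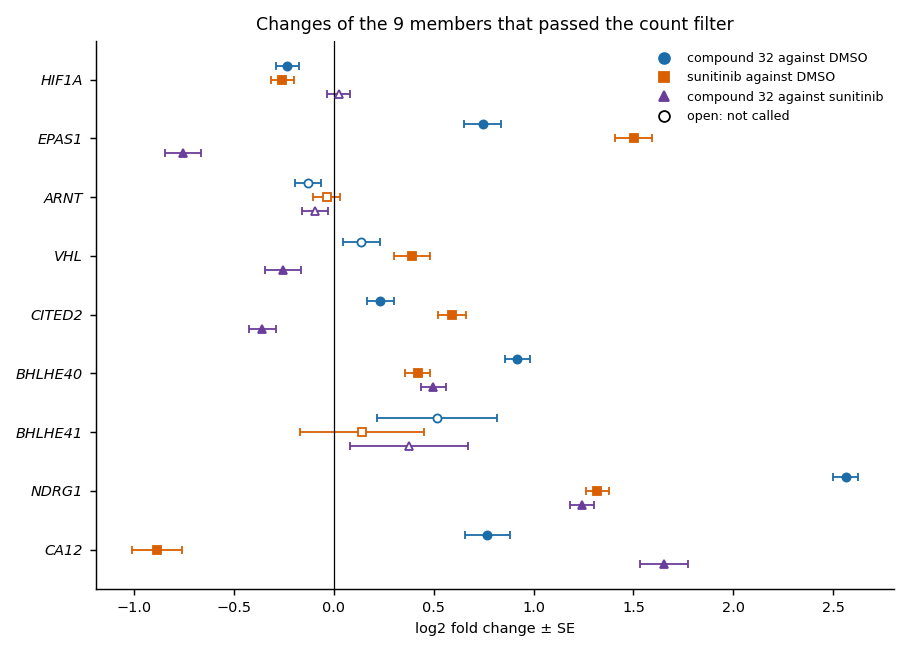
Log2 fold change ± SE of the 9 genes that passed the count filter in the 3 comparisons, with open symbols for those not called. NDRG1 reaches 2.56 and BHLHE40 0.92 for compound 32 against DMSO, EPAS1 1.50 for sunitinib against DMSO, and the comparison between the compounds lies below 0 for EPAS1 (-0.76), CITED2 (-0.36), VHL (-0.25) and ARNT (-0.09, not called).

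Ordered by level per kilobase of gene length, CITED2 (29.8 ± 1.30 CPM per kb), BHLHE40 (28.2 ± 1.31) and HIF1A (27.1 ± 0.387) led with DMSO, and neighbours in that order overlapped. NDRG1 stood at 13.5 CPM per kb there, behind VHL (15), and EPAS1 at 5.70. With compound 32 NDRG1 led at 79.9 CPM per kb, ahead of BHLHE40 (53.3), CITED2 (35.0), HIF1A (23.1) and VHL (16.5), with no overlap between them. With sunitinib CITED2 (44.9), BHLHE40 (37.8) and NDRG1 (33.7) led, while HIF1A (22.7) and VHL (19.7) overlapped. CA12 (at most 1.71 CPM per kb), BHLHE41 (at most 0.426) and CA9 were lowest in all 3 treatments.

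Around these genes, 36 further HIF targets outside glycolysis were listed, a list written with earlier results of these libraries known, and 34 were tested. With compound 32, 32 were higher, 0 lower and 2 not called, KDM4C (0.28 ± 0.10) and RSBN1 (-0.05 ± 0.09). Their median log2 fold change was 1.30, and the smallest p-values belonged to the histone demethylase KDM3A (1.72 ± 0.06), the mitophagy receptor BNIP3L (1.54 ± 0.06) and the secreted lipase inhibitor ANGPTL4 (3.60 ± 0.17). With sunitinib, 10 were higher, 9 lower and 15 not called (median 0.09). The growth inhibitor DDIT4 rose (2.70 ± 0.11), with STC2 (1.65 ± 0.07) and the angiogenic factor VEGFA (1.51 ± 0.07). KDM3A (-0.09 ± 0.06) was not called with sunitinib, nor was ANGPTL4 (-0.63 ± 0.23). Between the compounds 26 were higher with compound 32, 2 lower and 6 not called (median 0.98). The 2 lower genes were DDIT4 (-1.21 ± 0.10) and STC2 (-0.92 ± 0.06), named after their values were seen, and KDM3A (1.82 ± 0.06), LOX (1.76 ± 0.08) and ANGPTL4 (4.23 ± 0.19) were higher.

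**Figure D5:**
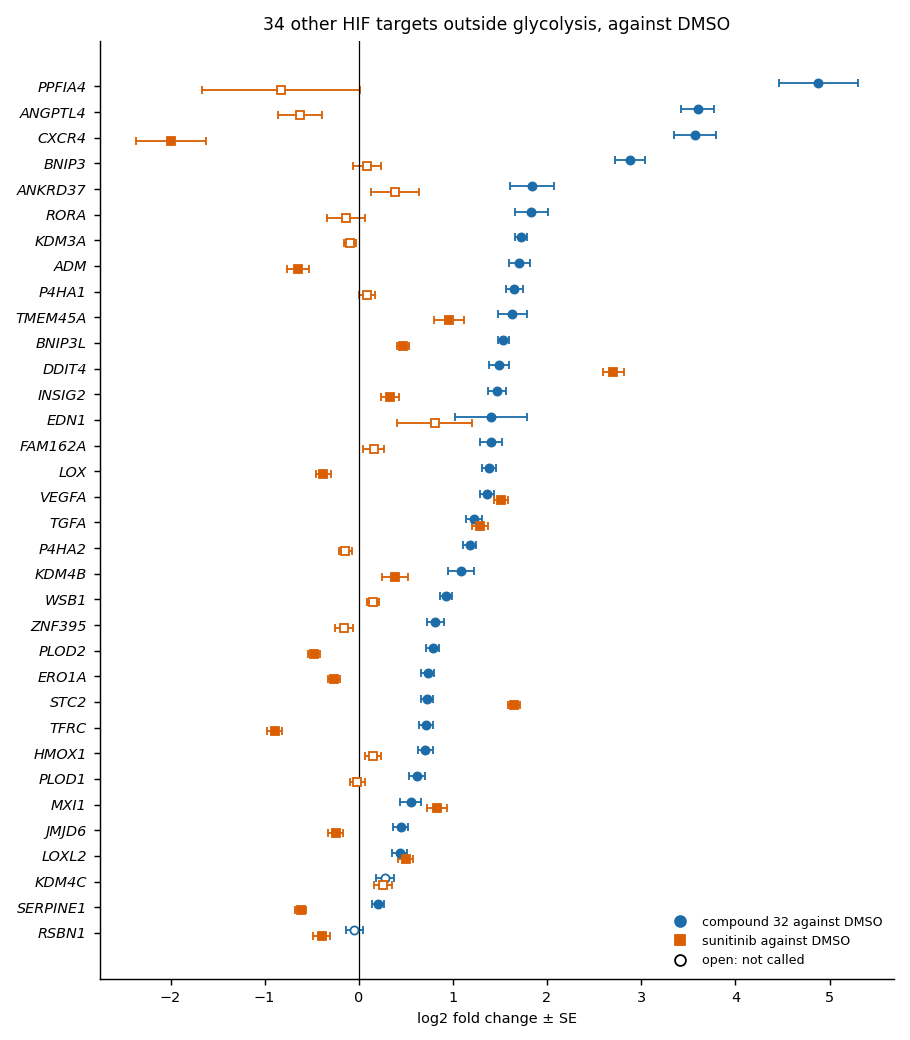
Log2 fold change ± SE against DMSO of the 34 tested HIF targets outside glycolysis other than the 10 genes, with open symbols for those not called. With compound 32 all points but RSBN1 lie above 0, with a median of 1.30, and with sunitinib they spread on both sides of 0 around a median of 0.09.

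For comparison, of 20 glycolytic HIF targets 19 were tested and 19 were higher with compound 32 (median 1.02), including SLC2A1 (2.13 ± 0.09), PFKFB4 (2.82 ± 0.10) and ENO2 (2.00 ± 0.07). With sunitinib 3 were higher, 7 lower and 9 not called (median -0.07), among them LDHA (-0.60 ± 0.09), PFKFB3 (-0.55 ± 0.09) and PGAM1 (-0.42 ± 0.06). Between the compounds 19 were higher with compound 32 (median 1.14), with ENO2 at 2.40 ± 0.07, HK2 at 2.17 ± 0.09 and PDK1 at 2.06 ± 0.09. NDRG1, BHLHE40 and VEGFA (1.37 ± 0.07 with compound 32) rose with both compounds. CA12 and LDHA (1.37 ± 0.09 with compound 32) rose with compound 32 and fell with sunitinib. They are examples chosen after their values were seen, and other listed genes followed each pattern.

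The protein-coding genes whose log2 CPM was most like that of the 4 widest-ranging of the 9 tested genes, CA9 not being among them, were found by Pearson's r over the 9 libraries, among 12462 genes, as a description. NDRG1 was most like STARD4 (r = 0.9958), NABP1 (0.9928) and DUSP5 (0.9908). CA12 was most like LIN54 (0.9966), G3BP2 (0.9955) and TCF19 (0.9944). EPAS1 was most like SESN2 (0.9939), IER3 (0.991) and DDIT4 (0.9907), and BHLHE40 most like PLK3 (0.994), P4HB (0.9935) and CDKN1A (0.9914). The 9 libraries fall into 3 treatments and share library scaling, so they are not 9 independent points.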

How the data were processed

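Libraries were made from oligo(dT)-selected RNA with random-hexamer cDNA, per the labels. The authors deposited raw read counts per gene as whole numbers. The submitters' processing notes name fastp, HISAT2 2.0.5, featureCounts, DESeq2 and edgeR, without roles, and list a mouse build beside hg38; gene names and coordinates of 58724 of the 58735 genes matched GENCODE on GRCh38. The sources used here do not say if counting used strand.

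From these counts, edgeR 4.0.16 (R 4.3.3) kept 15232 genes with filterByExpr, scaled libraries by TMM (0.983 to 1.051) and fitted 1 group-means quasi-likelihood model to all 9 libraries, on 6 residual degrees of freedom. Replicate pairs differed by more than sampling noise (chi-square per degree of freedom at least 1.86), so none was counted as a copy. Pairs with sunitinib replicate 3 stood at 46.4 and 45.3, and all other pairs at 3.22 or less. Alternatives covered other scalings, filters, DESeq2 1.42.0, limma 3.58.1 (voom), a replicate block, 6 libraries and leaving out each library. The series text calls the DMSO and sunitinib samples biological replicates, but not those of compound 32, whose spread may be technical. The p-values of every comparison rest on a spread per gene estimated over all 9 libraries, not on that of compound 32 alone. They may therefore not measure a spread between biological replicates of compound 32.

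The 10 genes and all lists were chosen with earlier results of these data known. Named genes are the 10, per comparison the 3 called genes of smallest p in each list, EGLN1, EGLN2, EGLN3 and HIF1AN always, and for the 4 widest-ranging tested genes the 3 most correlated protein-coding genes. The values of 1 transporter that this rule names are not reported here.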

Additional observations from a re-analysis of the deposited data

How the results depend on the processing

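Over 18 alternatives, the genes called for compound 32 against DMSO numbered 3401 in the reported analysis, 6371 when the fit held the 6 libraries compared, and between 2136 (without DMSO replicate 3) and 6548 (without sunitinib replicate 3) when 1 library was left out; the cause was not tested. The counts of the 10 genes and of other HIF targets called stayed within 1.5 times of those reported. With the replicate block, 2878 genes were called for compound 32 against DMSO, 5758 for sunitinib against DMSO and 7174 between the compounds (6126 and 7498 reported for the last 2). Deviations of same-numbered libraries had correlations of -0.0769 to 0.0609, and those of differently numbered ones -0.0609 to 0.0882. No pairing by number was seen, but with 3 libraries a group these correlations cannot exclude one. The block ended 1 call among the 10 genes, VHL between the compounds. Upper-quartile scaling moved the share of calls that were higher with sunitinib from 50.4% to 63.1%, and library totals to 60.1%. Between the compounds these scalings gave 39% and 40.9% in place of 48.9%. No called value of the 10 genes changed sign, but 3 uncalled ones did in 1 or 2 alternatives, ARNT and BHLHE41 for sunitinib and HIF1A between the compounds. Depth limits CA9, BHLHE41 and EGLN3.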

Other observations

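ARNT also pairs with the aryl hydrocarbon receptor and related proteins, and 7 of 13 genes of that branch were tested. With compound 32 against DMSO all 7 were not called (edgeR, median log2 fold change -0.06), 1 of them, TIPARP, with an unadjusted p of 0.0244 (0.14 ± 0.05 SE, 3 libraries a group), and AHR itself was at 0.15 ± 0.12 SE. With sunitinib 1 was higher, 1 lower and 5 not called (median 0.11). TIPARP, a target and repressor of the receptor, fell from 149.5 ± 0.987 CPM (SD, n = 3) to 95.03 ± 0.436 CPM (-0.65 ± 0.05), and the repressor AHRR rose from 1.02 ± 0.219 to 1.95 ± 0.211 CPM (0.92 ± 0.29). Between the compounds TIPARP was higher with compound 32 (0.79 ± 0.05), while AHRR (-1.33 ± 0.30) and SIM2 (-0.34 ± 0.10) were lower and 4 were not called.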
